A study of Medicago truncatula with 6 samples.

Results

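Class III peroxidases are secreted haem enzymes of plants, encoded by large gene families. They use hydrogen peroxide to oxidise phenolic compounds in the cell wall, which polymerises lignin and cross-links wall polymers, and they can also produce reactive oxygen species. In roots they act in xylem lignification, in the Casparian strip (the lignin ring of the endodermis), in root hair growth and in the response to microbes. Arbuscular mycorrhizal fungi grow through the wall space of the root cortex and form branched arbuscules inside its cells.

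The genes described here are the annotated loci of Medicago truncatula, a model legume, whose deposited description contains the word peroxidase and none of glutathione, ascorbate, thioredoxin and peroxiredoxin. This selected 137 of the 54762 loci in the table. Their transcripts were counted by RNA sequencing of colonised roots of 2 genotypes, the Mtphr2 mutant (3 libraries) and the wild type R108 (3 libraries), and the labels name R108 as the line of both. PHR2 is a MYB-type factor of the phosphate starvation response, and all 6 libraries come from mycorrhizal roots, so no uncolonised root is compared. The mutant allele, the fungus, the plant age and the phosphate supply are not given in the labels. Since the labels describe the replicates as technical, the p-values given below reflect variation among these 6 libraries that may be technical, and whether separate plants were sampled is not stated.

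The label of the family held for most of its members. Of the 137 loci, 130 carried the plant haem peroxidase domain, and 131 had a peroxidase as closest Swiss-Prot entry. A set of 5 loci is described as vanadium-dependent haloperoxidase and carries a different domain, that of the divergent PAP2 family, so these 5 are members by the word only. The remaining 2 had no listed domain. By locus name, 37 members lie on chromosome 2, 23 on chromosome 4, 17 each on chromosomes 1 and 5, 14 each on chromosomes 3 and 7, 8 on chromosome 6, 3 on chromosome 8 and 4 on unplaced scaffolds. Locus names follow version 4.0 of the genome, and coordinates are not used here.

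Library totals were 19809184 to 21477169 estimated counts in Mtphr2 and 18199040 to 19396774 in R108. The 7 Casparian strip membrane protein genes, used as root markers, summed to 142 to 177 CPM in Mtphr2 and 109 to 329 CPM in R108, where CPM is a locus's estimated count scaled to a common library size (counts per 1000000). The 8 leaf-type Rubisco small chain genes summed to 14.8 to 19.8 CPM in Mtphr2 and 14.1 to 22.0 CPM in R108. The 29 chlorophyll-binding protein genes summed to 112 to 195 CPM in Mtphr2 and 115 to 189 CPM in R108, so leaf-type transcripts were low but not absent. The arbuscule marker PT4, a phosphate transporter gene, had 403, 38.3 and 89.0 CPM in Mtphr2 replicates 1 to 3 and 1705, 819 and 404 CPM in R108 replicates 1 to 3. The level of arbuscule transcripts thus differed several-fold inside each genotype, and R108 replicate 3 (404 CPM) was level with Mtphr2 replicate 1 (403 CPM). In whole roots, fewer cells of a type and less RNA per cell cannot be told apart.

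A large part of the family had few or no transcripts in these roots. No count was found in any library for 29 members, and another 27 had too few to test, with at most 29 estimated counts in a library. The 81 tested members had a median level of 27.9 CPM, against 15.1 CPM over all 22663 tested genes. A mean of at least 100 CPM was reached by 16 of the 81, and 25 were under 10 CPM. A group of 5 neighbouring loci on chromosome 5, MTR_5g074700 to MTR_5g074770, was untested throughout, and together these loci had 0.783 to 1.15 CPM in Mtphr2 and 0.542 to 0.923 CPM in R108.

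Transcripts of the family were concentrated in a few genes. The 8 most abundant members held 70.3% of all peroxidase CPM, and the first of them, MTR_6g043240, held 19.3%. Its closest Swiss-Prot entry is Arabidopsis PER12, and it had 2009, 2383 and 1935 CPM in Mtphr2 replicates 1 to 3, against 1287, 1726 and 1665 CPM in R108 replicates 1 to 3. Every Mtphr2 library lay above every R108 library, and the fitted difference was 1.35-fold (log2 fold change 0.44, SE 0.162, adjusted p = 0.274 by edgeR).

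Per kilobase of locus length, MTR_6g043240 reached 1335 CPM. Behind it came the PER42-like gene MTR_4g132110 with 663, the PER22-like gene MTR_2g029750 with 642, and the PER15-like gene MTR_2g029800 with 586 CPM per kilobase. The PER3-like gene MTR_2g088770 had 532 and the PER15-like gene MTR_2g029850 had 357 CPM per kilobase. The ranges over libraries were 624 to 803 for MTR_4g132110, 522 to 751 for MTR_2g029750, 428 to 704 for MTR_2g029800 and 351 to 768 CPM per kilobase for MTR_2g088770. All 4 ranges overlapped, so the order behind MTR_6g043240 is not settled among these 4 genes.

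The genotypes overlapped in several of the next most abundant genes. MTR_4g132110 had 1057, 1032 and 1061 CPM in Mtphr2, against 1039.5, 1059 and 1327 CPM in R108. The same held for MTR_2g029750, with 1068, 851 and 756 CPM in Mtphr2 and 841, 981 and 1089 CPM in R108. MTR_2g029800 had 891, 917 and 790 CPM in Mtphr2, all above the 653, 769.8 and 558 CPM in R108 (log2 fold change 0.39, SE 0.146, adjusted p = 0.275 by edgeR).

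MTR_4g125940, whose closest entry is the neutral peroxidase PERN of horseradish, had 531, 413 and 469 CPM in Mtphr2, against 269.9, 286 and 389 CPM in R108. The genotypes did not overlap, and the fitted difference was 1.5-fold (log2 fold change 0.58, SE 0.173, adjusted p = 0.232 by edgeR). The second PERN-like gene, MTR_2g040000, also had all Mtphr2 libraries above all R108 libraries, with 125 ± 5.51 CPM in Mtphr2 and 84.7 ± 26.0 CPM in R108 (SD, n = 3 each).

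**Figure D1:**
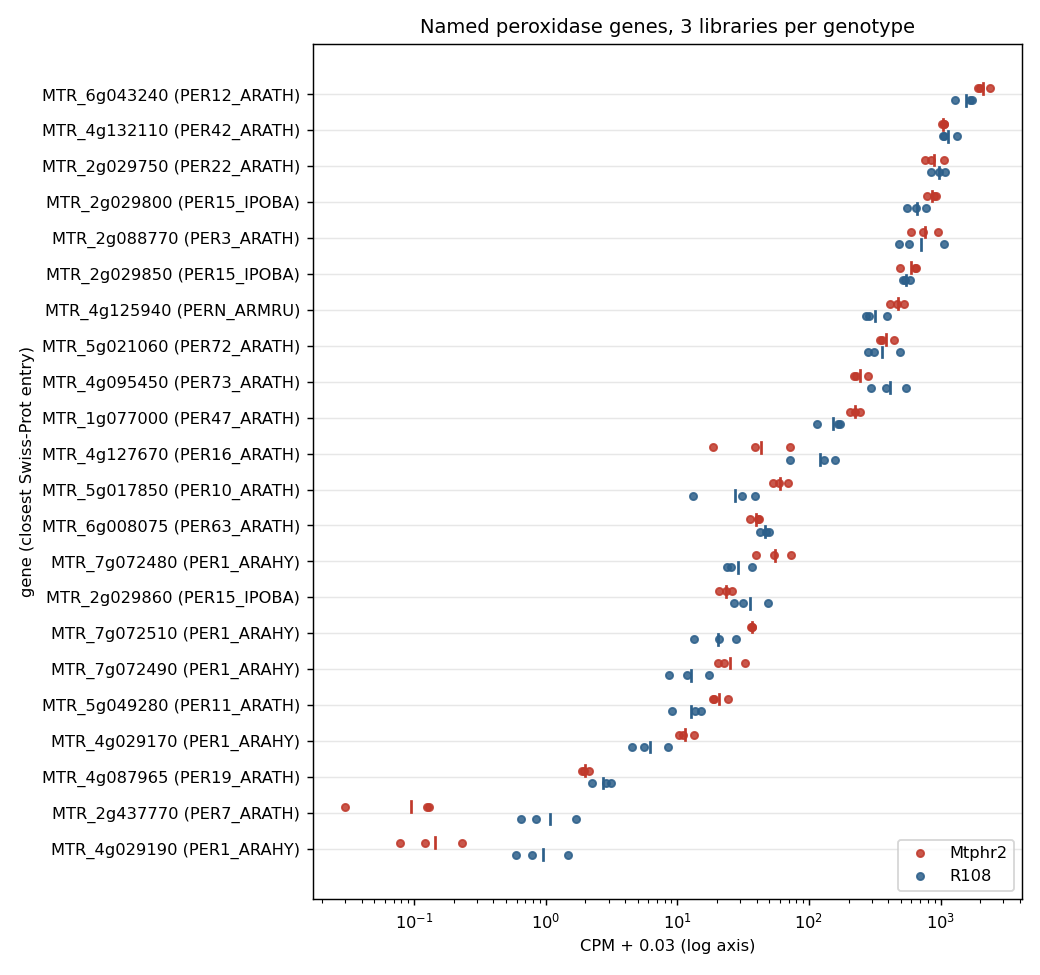
Levels of 22 peroxidase genes in each library (horizontal axis, CPM + 0.03 on a log axis), with Mtphr2 in red above R108 in blue and a vertical bar at each mean of 3 libraries. The most abundant gene, MTR_6g043240, has all 3 Mtphr2 libraries (1935 to 2383 CPM) above all 3 R108 libraries (1287 to 1726 CPM).

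Summed over all members, peroxidase transcripts came to 9870.5, 10207 and 9969 CPM in Mtphr2 replicates 1 to 3, against 8273, 8625 and 10172 CPM in R108 replicates 1 to 3. The means were 10015 ± 173 CPM in Mtphr2 and 9023 ± 1011 CPM in R108 (SD, n = 3 each), a ratio of 1.11. R108 replicate 3 lay inside the Mtphr2 range and the other R108 libraries below it. Without MTR_6g043240 the means were 7906 ± 112 CPM in Mtphr2 and 7464 ± 904 CPM in R108, a ratio of 1.06, and without the 8 most abundant genes the ratio was 1.04.

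The comparison of genotypes asked which peroxidase genes differ between Mtphr2 and R108 in colonised roots. By edgeR's quasi-likelihood test 0 of the 81 tested members passed an adjusted p of 0.05 (Benjamini-Hochberg over all tested genes), where 0.0794% of all tested genes passed (18 of 22663). The lowest adjusted p of a member was 0.164 by edgeR, for MTR_2g437770, which passed the count filter only through R108. With the replicate number as a term in the fit (the replicate block), 0.335% of all tested genes passed and again 0 of the 81, whose lowest adjusted p by edgeR was then 0.0611. Limma-voom called 0.137% of all tested genes and 0 members. With the mean arbuscule marker level as a covariate in edgeR, 0.0927% of all tested genes passed and 0 members. That level, the mean log2 CPM of 4 markers, was 2.885 to 5.973 in Mtphr2 and 6.074 to 8.361 in R108. The genotypes did not overlap in it, so this fit cannot fully tell marker level from genotype. DESeq2 called 6 members, which is 7.41% of the 81, against 5.72% of all tested genes. Of these, 2 were higher in Mtphr2 (2.47% of members, 2.77% of all tested genes) and 4 lower (4.94% of members, 2.95% of all tested genes), but 2 of the 4 lower ones, MTR_2g437770 and MTR_4g029190, passed the count filter only through R108 and had to differ.

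At an unadjusted p under 0.05 by edgeR, 14 members were higher and 7 lower in Mtphr2. That is 25.9% of the 81 members, beside 16.4% of all tested genes. The share was 17.3% of members on the higher side against 8.01% of all tested genes, and 8.64% against 8.41% on the lower side. The 7 lower members include MTR_2g437770 and MTR_4g029190, which passed the count filter only through R108 and had to differ. They count toward these shares without supporting them, and they were not set aside in the other fits of this paragraph. Without adjustment 28 members (34.6%) passed with the replicate block, beside 20.2% of all tested genes, 21 (25.9%) by limma-voom, beside 15.6%, and 11 (13.6%) with the marker covariate, beside 10.8%. With that covariate, which is confounded with genotype, the higher side no longer held the larger share. It had 5 members (6.17%, beside 7.32% of all tested genes), and the lower side had 6 (7.41%, beside 3.53%). The median log2 fold change was 0.065 over the members and 0.017 over all tested genes, with 43 members (53.1%) above 0, beside 52.3% of all tested genes, and 38 below. The median size of the log2 difference, in either direction, was 0.45 over the members and 0.21 over all tested genes.

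In 20 members the genotypes did not overlap, 13 higher and 7 lower in Mtphr2. This is 24.7% of the members, close to the 22.2% of all tested genes, and by direction the shares were 16.0% of members against 11.6% of all tested genes on the higher side and 8.64% against 10.6% on the lower side. A fold of at least 2 in either direction was fitted for 13 members (16.0%), beside 8.43% of all tested genes. Of these, 5 were higher (6.17%, beside 3.59% of all tested genes) and 8 lower (9.88%, beside 4.84%). Of the 8 lower ones, 2 (MTR_2g437770 and MTR_4g029190) were below 0.5 CPM in every Mtphr2 library and passed the count filter only through R108, so they count toward these shares without supporting them.

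**Figure D2:**
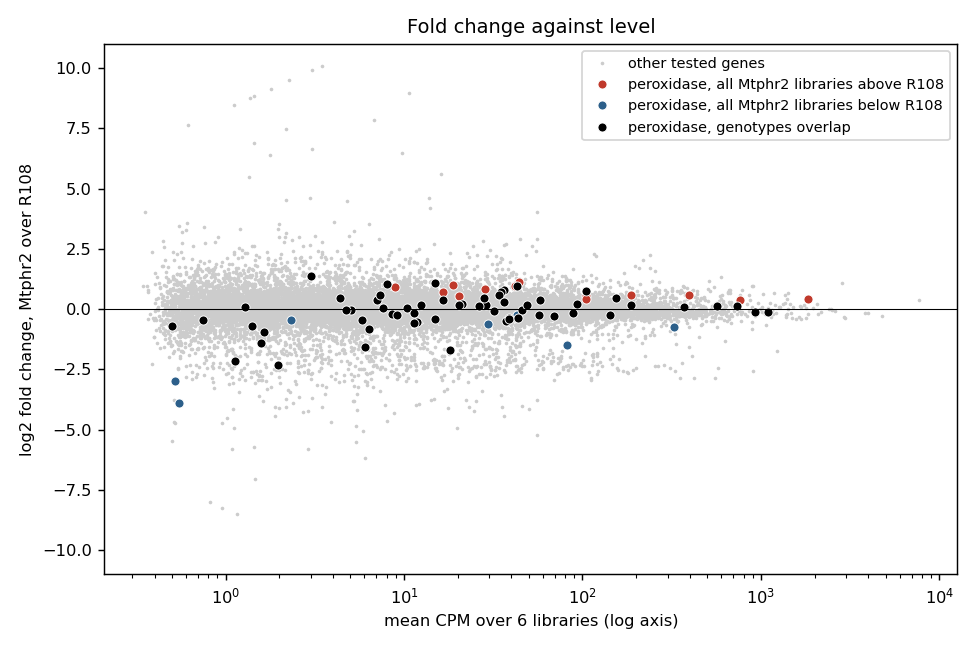
Log2 fold change (Mtphr2 over R108, vertical axis) against mean CPM over 6 libraries (log axis) for 22663 tested genes, with the 81 peroxidase genes as large points. Red marks the 13 with every Mtphr2 library above R108, blue the 7 with every Mtphr2 library below, and black those whose genotypes overlap.

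Among the members higher in Mtphr2, 1 group of neighbours on chromosome 7 had no overlap in any gene. All 3 of its loci, MTR_7g072480, MTR_7g072490 and MTR_7g072510, have the peanut cationic peroxidase PNC1 as closest entry. MTR_7g072480 had 54.2, 73.0 and 39.5 CPM in Mtphr2, against 25.6, 36.6 and 23.8 CPM in R108. MTR_7g072490 had 22.5, 32.7 and 20.4 CPM in Mtphr2, against 17.3, 11.9 and 8.56 CPM in R108. MTR_7g072510 had 37.0, 36.7 and 36.3 CPM in Mtphr2, against 20.6, 27.7 and 13.3 CPM in R108.

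In all 3 genes every Mtphr2 library lay above every R108 library, and the fitted folds were 1.94, 2.0 and 1.78. DESeq2 called MTR_7g072480 (adjusted p = 0.0284) and MTR_7g072490 (adjusted p = 0.0478) higher, and gave MTR_7g072510 an adjusted p of 0.0533. Adjusted p by edgeR was 0.216 to 0.232, and with the marker covariate the log2 fold changes were 0.81, 1.18 and 1.10. All 3 had estimated counts that were not whole in some library, so reads may have been divided between similar loci and the group is firmer as a sum. That sum was 114, 142 and 96.2 CPM in Mtphr2 and 63.6, 76.2 and 45.7 CPM in R108.

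The PER10-like gene MTR_5g017850 had 68.8, 53.4 and 59.7 CPM in Mtphr2, against 38.6, 13.1 and 30.9 CPM in R108. Its fitted fold of 2.20 (log2 fold change 1.14, SE 0.371) was the highest among members without overlap, and its adjusted p was 0.254 by edgeR and 0.0504 by DESeq2. MTR_1g077000 is nearest to Arabidopsis PER47, a peroxidase of lignifying vessels. It had 223, 204 and 245 CPM in Mtphr2, against 166, 116 and 172 CPM in R108, with an adjusted p of 0.231 by edgeR. The PER11-like gene MTR_5g049280 averaged 20.6 ± 3.17 CPM in Mtphr2 and 12.6 ± 3.19 CPM in R108 (SD, n = 3 each), again without overlap.

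Other members without overlap on the higher side differed less. The PER55-like gene MTR_7g029030 averaged 119 ± 17.5 CPM in Mtphr2 and 89.0 ± 5.66 CPM in R108, and the PER20-like gene MTR_5g014100 averaged 24 ± 3.47 CPM in Mtphr2 and 16.3 ± 2.38 CPM in R108 (SD, n = 3 each). In Arabidopsis PER17, PER25, PER47, PER52, PER53 and PER66 act in lignification of stems or vessels, and 22 members had one of these as closest entry, a group formed after the values were seen. Of the 12 tested, 10 had positive and 2 negative log2 fold changes, with a median of 0.24. Only MTR_1g077000 had no overlap, where 22.2% of all tested genes had none. Summed over the 22 members the levels were 501, 609 and 635 CPM in Mtphr2, against 448, 433 and 497 CPM in R108, so the sums did not overlap, by a narrow margin. Of these sums MTR_1g077000 alone gave 223, 204 and 245 CPM in Mtphr2 and 166, 116 and 172 CPM in R108. Without that gene the sums overlapped between genotypes.

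On the lower side the 2 largest fitted differences belonged to genes near the limit of detection. MTR_2g437770, a PER7-like gene, had 2, 0 and 2 estimated counts in Mtphr2 replicates 1 to 3, against 31, 12 and 15 in R108 replicates 1 to 3. The PNC1-like gene MTR_4g029190 had 4, 2 and 1 counts in Mtphr2, against 14, 11 and 27 in R108. Both genes passed the count filter only through R108, where they are high, so their test results given elsewhere do not support a difference. Their counts are given here as a description only. At such counts a fitted fold depends on the prior count of the model. Smaller differences without overlap were found for the PER15-like gene MTR_2g029860, with 23.5 ± 2.67 CPM in Mtphr2 and 35.8 ± 11.5 CPM in R108, and the PER63-like gene MTR_6g008075, with 39.6 ± 3.35 CPM in Mtphr2 and 46.4 ± 3.32 CPM in R108 (SD, n = 3 each). The PER19-like gene MTR_4g087965 was low in both, with 1.97 ± 0.129 CPM in Mtphr2 and 2.71 ± 0.446 CPM in R108 (SD, n = 3 each).

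MTR_4g127670, nearest to Arabidopsis PER16, was the most abundant of the 13 members with a fitted fold of at least 2. It had 72.0, 18.7 and 38.7 CPM in Mtphr2, against 158, 72.2 and 131 CPM in R108, a log2 fold change of -1.48 (SE 0.516). The genotypes were separated only narrowly, by 72.0 CPM in Mtphr2 replicate 1 against 72.2 CPM in R108 replicate 2. Adjusted p was 0.265 by edgeR, 0.0611 by edgeR with the replicate block and 0.0391 by DESeq2. Within Mtphr2 the gene followed the order of PT4, highest in replicate 1 and lowest in replicate 2, while in R108 it was lower in replicate 2 than in replicate 3, where PT4 was lowest. With the arbuscule marker level as a covariate the gene's log2 fold change was -0.49 (adjusted p = 0.804 by edgeR). Marker level and genotype cannot be fully told apart in that fit.

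Root hair growth in Arabidopsis involves PER1, PER44 and PER73, and 6 members had one of them as closest entry, a group also formed after the values were seen, of which 3 were tested. The 6 summed to 300.3, 227 and 234 CPM in Mtphr2, all below the 437, 329 and 550.1 CPM in R108. Most of each sum came from MTR_4g095450, and the sums of the other members overlapped between genotypes. The PER73-like gene MTR_4g095450 had 283, 221 and 227 CPM in Mtphr2, all below the 386, 298 and 545 CPM in R108. Its log2 fold change was -0.75 (SE 0.233), with an adjusted p of 0.239 by edgeR and 0.0411 by DESeq2. The PER44-like gene MTR_7g086820 had 16.7, 4.10 and 4.90 CPM in Mtphr2 and 49.1, 29.5 and 4.44 CPM in R108. Here R108 replicate 3 lay within the Mtphr2 range, and the log2 fold change was -1.70, or 1.17 with the marker covariate (adjusted p = 0.40 and 0.663 by edgeR). The PER1-like gene MTR_1g089005 had 1.32 ± 0.554 CPM in Mtphr2 and 1.26 ± 0.625 CPM in R108 (SD, n = 3 each).

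Neighbouring peroxidase genes were common. Members on the same chromosome with locus numbers at most 50 apart formed 20 groups that held 65 of the 137 members, and 11 of these groups had 3 or more members. The largest, from MTR_2g029730 to MTR_2g029930 on chromosome 2, held 12 loci, 9 of them tested. These loci gave 28.2% of all peroxidase CPM. The group sum was 2900.2, 2913 and 2547 CPM in Mtphr2 and 2414, 2697 and 2618 CPM in R108, so the genotypes overlapped. Of its 9 tested genes, 6 had positive and 3 negative log2 fold changes, from -0.61 for MTR_2g029860 to 0.46 for MTR_2g029820. Its loci MTR_2g029750 and MTR_2g029740, both PER22-like, had levels of 642 and 8.48 CPM per kilobase, and log2 fold changes between genotypes of -0.12 and 0.15. Counts not whole in some library were found for 9 of the 12 loci.

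A group of 4 loci on chromosome 4 held values on both sides of 0. Its first locus, the PNC1-like MTR_4g029170, had 13.4, 11.0 and 10.2 CPM in Mtphr2, all above the 4.50, 8.46 and 5.58 CPM in R108 (adjusted p = 0.225 by edgeR). The third, MTR_4g029190, had all Mtphr2 libraries below R108, as given above by its counts. The fourth, MTR_4g029200, had 0.803, 0.138 and 0.286 CPM in Mtphr2 and 3.69, 0.513 and 1.35 CPM in R108, with 1 library of each genotype in the range of the other. The PER52-like second locus, MTR_4g029180, had 7.95 ± 1.38 CPM in Mtphr2 and 6.12 ± 2.44 CPM in R108 (SD, n = 3 each). The fitted log2 fold changes were 0.90, 0.38 and -2.17 for MTR_4g029170, MTR_4g029180 and MTR_4g029200, and none of these 3 passed edgeR's test (adjusted p = 0.225, 0.61 and 0.303). With 0.138 and 0.286 CPM in its lowest Mtphr2 libraries, MTR_4g029200 was near the limit of detection, so the size of its fold is uncertain.

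**Figure D3:**
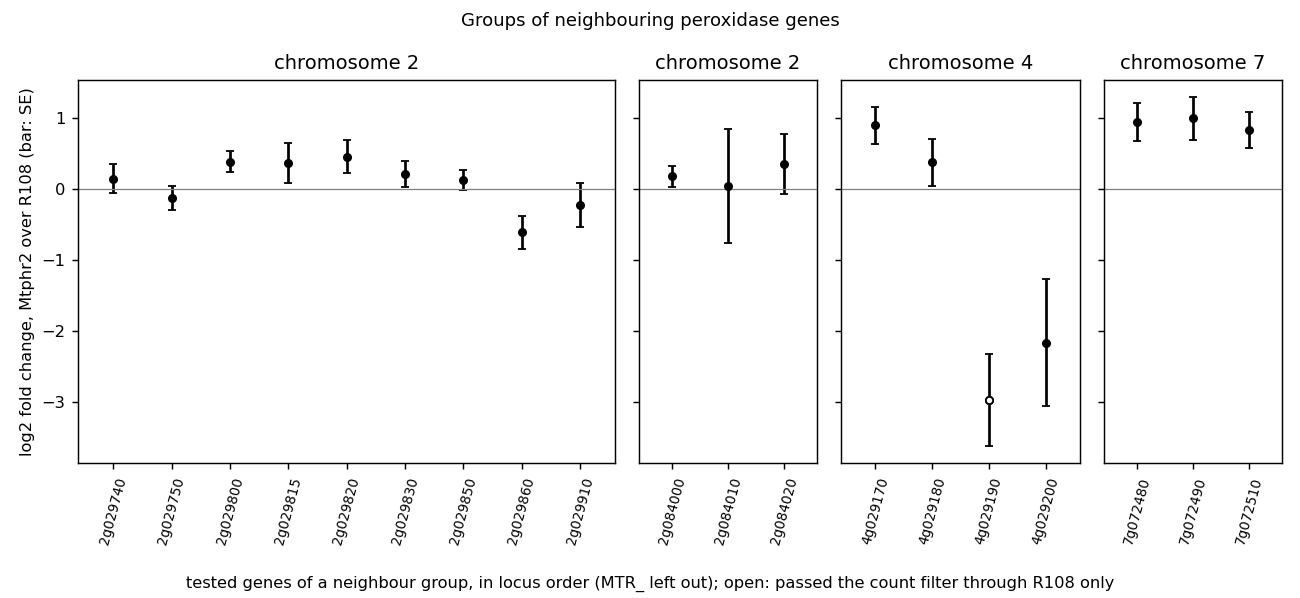
Log2 fold change (Mtphr2 over R108) with its standard error for the tested genes of 4 groups of neighbouring peroxidase loci, in locus order. The 3 genes on chromosome 7 lie between 0.84 and 1.0, and on chromosome 4 the filled points run from 0.90 to -2.17. The lowest filled point, MTR_4g029200, had low counts in Mtphr2, so its size is uncertain. The open point, MTR_4g029190, passed the count filter only through R108 and its size depends on the prior count.

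Grouped by closest Swiss-Prot entry, the 11 tested PNC1-like genes had 5 positive and 6 negative log2 fold changes, with MTR_4g029190, which passed the filter only through R108, among the negative ones. Of the 9 tested genes nearest to PER15 of sweet potato, 7 were positive and 2 negative, with a median of 0.37. PER52 of Arabidopsis acts in lignification of stems, and of its 6 tested counterparts 5 were positive and 1 negative, with a median of 0.27. None of them was without overlap, beside 22.2% of all tested genes. The 3 tested genes nearest to PER4 of grapevine were all negative, with log2 fold changes of -0.84 to -0.18. The 4 tested haloperoxidase-described genes, which are not class III enzymes, had log2 fold changes between -0.25 and 0.16.

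In Arabidopsis, PER3, PER9, PER39, PER64 and PER72 together lignify the Casparian strip. In these roots 9 members had one of them as closest entry, a group put together after the values were seen, and all 9 were tested. MTR_2g088770, nearest to PER3, had 739, 595 and 961 CPM in Mtphr2 and 574, 485 and 1061 CPM in R108. The PER72-like gene MTR_5g021060 had 359, 346 and 445 CPM in Mtphr2 and 312, 280.3 and 491 CPM in R108. The PER64-like gene MTR_1g025980 had 33.7, 27.9 and 38.9 CPM in Mtphr2 and 40.9, 19.7 and 70.5 CPM in R108.

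Genotypes overlapped in all 9 genes, where 22.2% of all tested genes had no overlap. The libraries of R108 lay at both ends of the range. In 5 of the 9 the highest of all 6 libraries was R108 replicate 3, beside 17.4% of all tested genes. In 6 of the 9 the lowest was R108 replicate 2, beside 17.6% of all tested genes. The 9 genes summed to 1231, 1100.5 and 1611 CPM in Mtphr2 replicates 1 to 3, against 1075, 861 and 1845 CPM in R108 replicates 1 to 3. The Casparian strip membrane protein genes, which place the strip, had the same end libraries, with sums of 142, 146 and 177 CPM in Mtphr2 and 157, 109 and 329 CPM in R108. R108 replicate 3 was highest for 6 of these 7 genes, beside 17.4% of all tested genes. All these values come from the same libraries, and whether the libraries differ in root age or tissue was not tested.

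**Figure D4:**
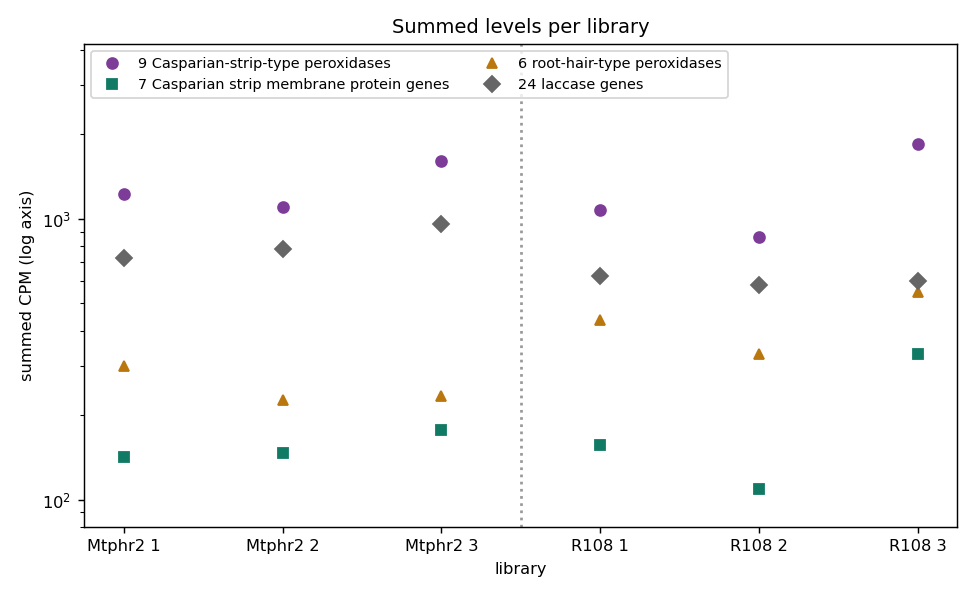
Summed CPM (log axis) in each library for 9 peroxidases nearest to Arabidopsis Casparian strip enzymes, 7 Casparian strip membrane protein genes, 6 peroxidases nearest to root hair enzymes and 24 laccases. Within R108 the Casparian strip peroxidases run from 861 CPM in replicate 2 to 1845 CPM in replicate 3, a wider range than the 1100.5 to 1611 CPM within Mtphr2.

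Peroxidase genes varied more between libraries than most genes. The median ratio of the highest to the lowest library was 1.62 within Mtphr2 and 1.96 within R108 over the members, against 1.31 within Mtphr2 and 1.32 within R108 over all tested genes (0.1 CPM added to both levels). In some members the same-numbered library was the high one in both genotypes. Combinations of different numbers were not counted for comparison. In 8 members (9.88% of the 81) replicate 2 was at least 1.5-fold above both other libraries in Mtphr2 and in R108, beside 0.68% of all tested genes. The 1.5-fold limit was set after the values were seen, and at 2-fold the count was 2 members (2.47%), beside 0.243% of all tested genes. For replicate 1 the 1.5-fold shares were 4.94% of members and 3.59% of all tested genes, and for replicate 3 they were 0 members and 0.291% of all tested genes.

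Among the 8 genes high in replicate 2, the PER4-like gene MTR_5g083860 had 4.27, 24.8 and 2.95 CPM in Mtphr2 replicates 1 to 3, against 6.57, 21.7 and 7.96 CPM in R108 replicates 1 to 3. The PER52-like gene MTR_2g084010 had 2.71, 20.9 and 8.0 CPM in Mtphr2, against 5.97, 19.4 and 5.20 CPM in R108. The gene MTR_2g008710, nearest to the peanut cationic peroxidase PNC2, had 30.6, 60.6 and 30.7 CPM in Mtphr2, against 18.5, 44.9 and 17.9 CPM in R108. The other five were MTR_1g054205, MTR_2g029560, MTR_3g072210, MTR_3g094630 and MTR_3g094670, nearest to PER53, PER15, PNC1, PER52 and PER52. The genotypes overlapped in all 8 genes when libraries were taken without their numbers, which the choice of genes high in replicate 2 of both genotypes made likely. Within same-numbered pairs, Mtphr2 was above R108 in all 3 pairs for MTR_2g008710 (adjusted p = 0.556 by edgeR and 0.0805 with the replicate block) and MTR_3g094630 (adjusted p = 0.361 by edgeR and 0.0926 with the replicate block). The block takes out the replicate pattern by which these 8 genes were picked, so a lower adjusted p with it follows from that choice. The share of all tested genes with 3 such pairs was not computed. What the libraries of 1 number share is not given in the labels.

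**Figure D5:**
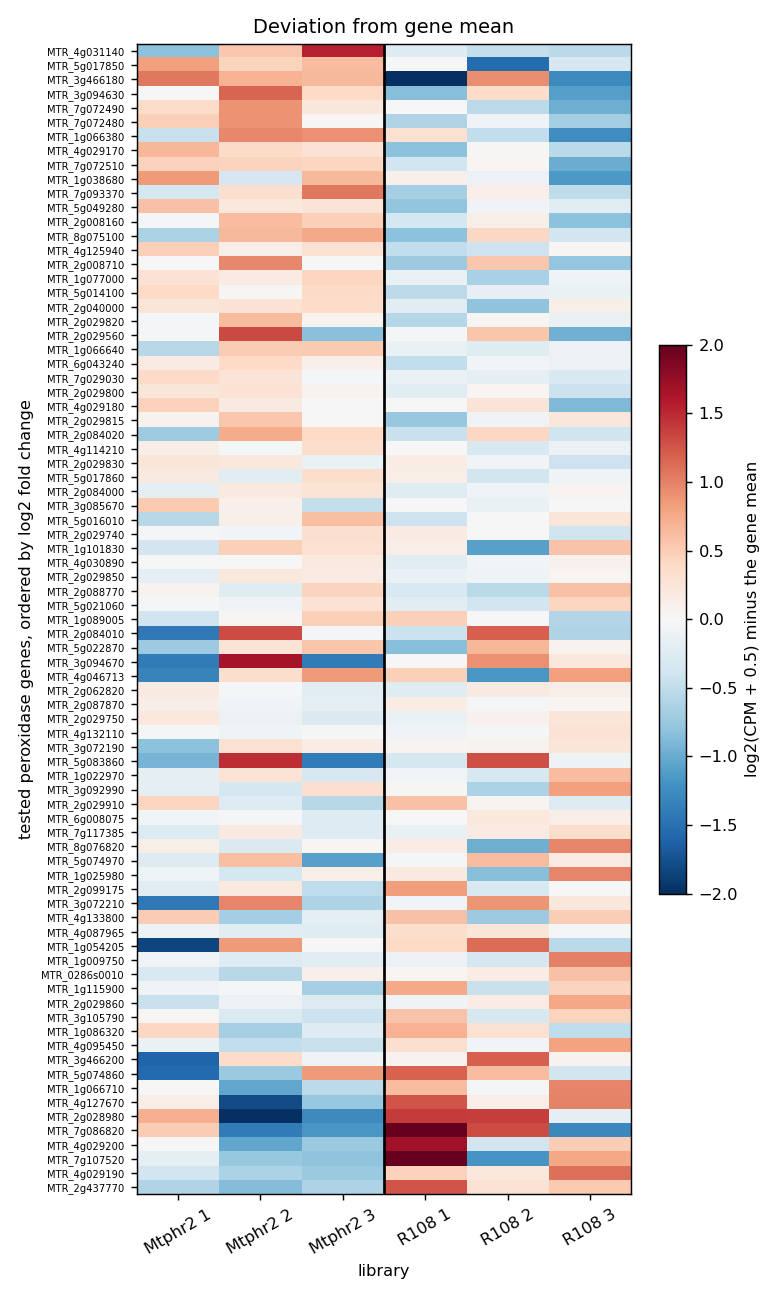
Deviation of log2(CPM + 0.5) from the gene mean for the 81 tested peroxidase genes, ordered by log2 fold change, with the 3 Mtphr2 libraries left of the 3 R108 libraries. Red is above and blue below the gene mean, and MTR_5g083860 is an example of the 8 genes that are high in replicate 2 of both genotypes (24.8 CPM in Mtphr2 and 21.7 CPM in R108).

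Enzymes around the peroxidases were read from lists chosen by words in the descriptions. Of 9 tested NADPH oxidase genes, which make the superoxide that feeds peroxide formation, 7 had positive and 2 negative log2 fold changes. In edgeR's test 0 passed, and DESeq2 called 1, which was lower in Mtphr2, where it called 2.95% of all tested genes lower. The most abundant, MTR_8g095520, had 299.7 ± 55.2 CPM in Mtphr2 and 244 ± 21.3 CPM in R108 (SD, n = 3 each). Of 7 genes matched as superoxide dismutase and 12 copper amine and polyamine oxidase genes, 0 passed, with medians of -0.12 and -0.02 on the log2 scale. Both enzyme types are sources of peroxide, but MTR_4g101820 in the first list is described as a copper chaperone of the dismutase. At an unadjusted p under 0.05 by edgeR, each list had 0 genes higher and 2 lower, beside 8.01% and 8.41% of all tested genes.

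Laccases are copper enzymes that also polymerise lignin. Of 17 tested, 15 had positive log2 fold changes, with a median of 0.44. They summed to 724, 783 and 959.8 CPM in Mtphr2, all above the 624, 579.6 and 601 CPM in R108. DESeq2 called 3 of the 17 higher, where it called 2.77% of all tested genes higher. EdgeR and limma-voom called 0, with 3 higher at an unadjusted p under 0.05 by edgeR, beside 8.01% of all tested genes. Dirigent proteins, which guide phenoxy radical coupling, had 5 positive and 12 negative log2 fold changes among 17 tested, with 0 calls by any of the 3 tools.

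The monolignol list takes in related enzymes of the same families that have other substrates. Of its 77 tested genes 51 had positive and 26 negative log2 fold changes, with a median of 0.32. EdgeR called 0, with 14 higher and 6 lower at an unadjusted p under 0.05, beside 8.01% and 8.41% of all tested genes. DESeq2 called 5 higher and 3 lower, beside 2.77% and 2.95% of all tested genes. The most abundant was the cinnamate 4-hydroxylase gene MTR_5g075450, with 1134, 1017 and 930.5 CPM in Mtphr2, against 727, 662 and 688 CPM in R108 (log2 fold change 0.57, adjusted p = 0.153 by edgeR and 2.36e-04 by DESeq2). With the replicate block 1 gene passed, MTR_4g057730 of the 4-coumarate:CoA ligase-like family, with 4.89 ± 4.34 CPM in Mtphr2 and 35.2 ± 24.3 CPM in R108 (SD, n = 3 each; block adjusted p = 0.0426 by edgeR).

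Germin-like proteins, many of which release peroxide in the wall, had 12 positive and 8 negative log2 fold changes among 20 tested genes. EdgeR called 0, with 2 higher and 5 lower at an unadjusted p under 0.05, beside 8.01% and 8.41% of all tested genes. All 35 listed germin-like genes summed to 1477, 1251 and 1310.2 CPM in Mtphr2, against 2760.1, 1925 and 1059.6 CPM in R108. The sum was thus lower in Mtphr2 for replicates 1 and 2 and higher for replicate 3. The most abundant, MTR_1g079490, had 749.8, 951 and 849.9 CPM in Mtphr2, against 433, 564 and 488 CPM in R108 (adjusted p = 0.142 by edgeR and 1.8e-04 by DESeq2). Enzymes that remove peroxide outside the family were also read. The cytosolic ascorbate peroxidase gene MTR_4g061140 had 1421 ± 89.3 CPM in Mtphr2 and 1412 ± 80.8 CPM in R108 (SD, n = 3 each). All 6 tested peroxiredoxin genes had negative log2 fold changes, with a median of -0.36 and 0 calls by edgeR. At an unadjusted p under 0.05 by edgeR, 4 of the 6 were lower, beside 8.41% of all tested genes. DESeq2 called 1 of the 6 lower, where it called 2.95% of all tested genes lower. That gene was the most abundant of them, the PRX2B-like MTR_6g087990 (adjusted p = 0.206 by edgeR and 0.0172 by DESeq2). It had 354, 333 and 277 CPM in Mtphr2, all below the 439, 463 and 415 CPM in R108. Of 5 glutathione peroxidase genes, 5 ascorbate peroxidase genes and 1 catalase gene tested, 0 passed by any of the 3 tools.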

How the data were processed

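Roots of Mtphr2 and R108 colonised by a mycorrhizal fungus were sequenced, 3 libraries each. The labels' protocols give TRIzol extraction, an Illumina NovaSeq instrument and alignment and assembly on version 4.0 of the Medicago truncatula genome by HISAT2 and StringTie. The submitters' processing notes also name DESeq2. Program versions, like the counting program, were not given in the sources used here. As deposited, the authors' values are expected counts (estimated counts) per locus from these alignments, per the file headers and values, with no normalization and 2 decimals, and they were rounded to whole numbers here. Columns of genotype means were not used further.

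Genes were filtered by filterByExpr (minimum count 10, minimum total 15), scaled by TMM (factors 0.955 to 1.02) and compared over all 22663 tested genes in R 4.3.3 with edgeR 4.0.16 (quasi-likelihood), with Benjamini-Hochberg adjustment at 0.05. DESeq2 1.42.0 and limma 3.58.1 were alternatives, and figures were drawn with matplotlib 3.10.9. The common biological coefficient of variation was 0.275. Fold changes are Mtphr2 over R108. Standard errors are the size of the log2 fold change divided by the square root of F. In simulated libraries of this spread and depth with 200 changed genes among 22331, edgeR recovered 27% of 2-fold and 73% of 4-fold changes with 14.5% false calls, DESeq2 49% and 89% with 41% false calls, and edgeR with the replicate block 4% and 68% with 16.3% false calls.

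Same-numbered libraries of the 2 genotypes had correlations of 0.377, 0.151 and 0.168 once genotype means were removed, each above 0.1, with the numbers taken from the titles, so fits with the replicate block are given. Pairs with different numbers had -0.31 to 0.187, the highest (Mtphr2 replicate 2 with R108 replicate 3) above 2 of the 3 same-number pairs. Chi-square per degree of freedom between libraries of a genotype was 25.4 to 52.6, so no library was a copy of another.

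Members and lists were chosen with earlier results of these data known. Named members are those called by edgeR without or with the replicate block, the 8 most abundant, the up to 8 highest and 8 lowest log2 fold changes among genes without overlap whose higher genotype averaged 2 CPM or more, and up to 6 DESeq2 calls, 22 in all. Other pathway lists give their called members or else the most abundant. Genes named for neighbour groups, Swiss-Prot groups, Arabidopsis roles or library patterns outside this rule were chosen after their values were seen. Lists were matched by words in the deposited descriptions. Estimated counts were not whole (tolerance 0.005) in some library for 40.7% of tested members and 26.5% of all tested genes. Sequences of proteins and promoters are not used here.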

Additional observations from a re-analysis of the deposited data

How the results depend on the processing

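Results were recomputed under 15 other settings. No peroxidase gene was called in any of them except with DESeq2, which called 6. Over all tested genes, the 18 calls became 1297 with DESeq2, 31 with limma-voom, 37 with no filter, 9 when genes had to average 10 CPM and 76 with the replicate block, and 7 to 44 with a library left out (44 without Mtphr2 replicate 1, 7 without Mtphr2 replicate 2 or 3, 8 without R108 replicate 2 or 3). The median log2 fold change of the members, 0.065, became -0.034 with no filter, 0.158 with the filter at 10 CPM and -0.144 with the arbuscule marker covariate, and it ran from -0.037 (without Mtphr2 replicate 2) to 0.173 (without Mtphr2 replicate 1) with 1 library left out. The sign of that median is therefore not settled. The filters change which members are counted. The covariate did not overlap between genotypes, and the cause of the shift with it was not tested. With the replicate block 0 members were called and their median was 0.088. That fit recovered only 4% of simulated 2-fold changes, but the simulated libraries held no effect of the replicate number. How many 2-fold changes it misses in these data is therefore not known.

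Of 326 values of named genes under these settings, 311 kept their direction and their side of the threshold. The 6 DESeq2 calls were MTR_2g437770, MTR_4g029190, MTR_4g127670, MTR_4g095450, MTR_7g072480 and MTR_7g072490, of which the first 2 passed the count filter only through R108. The 9 that turned sign belonged to genes close to 0. With the marker covariate MTR_2g088770 had -0.23, MTR_2g029850 had -0.24 and MTR_5g021060 had -0.25. Without 1 library MTR_2g088770 ran from -0.10 to 0.51 and MTR_5g021060 from -0.07 to 0.35, and both were below 0 without Mtphr2 replicate 3 (-0.08 and -0.03), R108 replicate 1 (-0.01 each) or R108 replicate 2 (-0.10 and -0.07). Scaling by library size alone, an alternative chosen after seeing the data, left 19 members without overlap (14 higher, 5 lower) in place of 20. The summed log2 ratio was 0.15, and 0.17 as a share of the deposited totals. With 3 libraries a genotype, 2-fold differences were often missed in simulated data.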

Other observations

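By the plant haem peroxidase domain rather than by description, 7 further annotated loci would join the family. Of these 6 are described as ascorbate peroxidases, and MTR_5g064610 is a thylakoid lumenal protein with at most 0.325 CPM. Their 5 tested members had log2 fold changes between -0.13 and 0.27 with an adjusted p of 0.571 to 0.976 by edgeR. No assembled locus outside the annotation carried the domain in the deposited table.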
